A study of Rattus norvegicus with 5 samples.

Results

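The 7 genes described here, *Gabra2*, *Gabra3*, *Gabra5*, *Gabrb1*, *Gabrb2*, *Gabrg1* and *Gabrg3*, encode subunits of the type A receptor for γ-aminobutyric acid (GABA), and were chosen by gene name among the 32883 genes counted. They were measured with droplet-based single-nucleus RNA sequencing (snRNA-seq) in the ventral tegmental area (VTA), the midbrain region of the mesolimbic dopamine neurons. The samples were 5 libraries, 1 from each of 5 adult male Sprague-Dawley rats, each made from punches of both sides of the VTA that were combined. All 5 form 1 group, since the sample labels give saline as the treatment of each, while the study's text elsewhere calls these rats drug-naïve, so the comparisons are between classes of nuclei within the rats and not between treatments. Rats were numbered 1 to 5 in the order of the sample list. Nuclei were barcodes with at least 1000 transcripts (unique molecular identifiers, UMIs), more than 200 and fewer than 5000 genes, and under 5% mitochondrial UMIs. This left 22084 nuclei, 1813, 9336, 2284, 4823 and 3828 in rats 1 to 5.

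The GABA-A receptor is a chloride channel gated by GABA and is built of 5 subunits around a central pore, most often of α, β and γ type. GABA binds at the interface of β and α subunits, and benzodiazepines bind at the interface of α and γ subunits, so that the α and γ types present set much of the pharmacology of a receptor. In the VTA, GABA neurons act through these receptors on neighbouring dopamine neurons, and dopamine neurons also receive inhibitory input from outside the region. Astrocytes and oligodendrocyte precursor cells (OPCs) are also known to carry functional GABA-A receptors. Of the genes here, *Gabra2*, *Gabra3* and *Gabra5* encode α subunits, *Gabrb1* and *Gabrb2* β subunits, and *Gabrg1* and *Gabrg3* γ subunits. In the rat RefSeq annotation (assembly GRCr8), *Gabrb1*, *Gabra4*, *Gabra2* and *Gabrg1* are neighbours, *Gabrg3* and *Gabra5* lie beside each other, and *Gabrb2* and *Gabra3* each stand apart from the other members.

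Levels are given as UMIs of a gene per 1000000 UMIs (CPM) of all nuclei of a class summed within a rat, and a sum of fewer than 10 nuclei was not used. Classes came from clusters made without any GABA-A receptor gene, and were named from markers of the cell types. The 3 neuronal classes held 4522 nuclei in all, namely dopaminergic-like nuclei (4, 284, 349, 150 and 171 in rats 1 to 5), GABAergic-like nuclei (68, 968, 715, 412 and 489) and glutamatergic-like nuclei (19, 338, 361, 139 and 55). The 4 dopaminergic-like nuclei of rat 1 were therefore left out, and the dopaminergic-like class has n = 4 rats. *Th*, the enzyme that makes the precursor of dopamine, stood at 512 to 694 CPM in dopaminergic-like and 22.2 to 108 CPM in GABAergic-like nuclei, and *Slc17a6*, a vesicular glutamate transporter, at 124 to 241 CPM in glutamatergic-like, 14.4 to 39.5 CPM in dopaminergic-like and 19.2 to 114 CPM in GABAergic-like nuclei. Glutamatergic-like nuclei included small sub-clusters with the related transporters *Slc17a8* or *Slc17a7* among their leading genes, and with *Slc17a6* at 3.68 and 40.1 CPM. Glia comprised astrocyte-like, OPC-like and oligodendrocyte-like nuclei, and the smaller microglia-like and vascular-like classes were used for levels alone. A further 5209 nuclei were in no class and 1068 were marked as doublets. Those in no class included a cluster of 1478 nuclei with mixed markers, 115 of them of rat 1 and 1286 of rat 2. *Slc6a3*, *Cck* and *Th* led it, and its median was 1228 UMIs. A neuronal cluster of 1221 nuclei with low UMI totals, also with *Slc6a3* among its leading genes, was left out too. So were 324 neuronal nuclei with markers of mixed transmitters and 524 mixed with glia, 370 of the latter of rat 3. A sub-cluster of mixed transmitters had *Th* at 310 CPM and *Slc17a6* at 169 CPM, so such neurons are outside the neuronal classes. Rat 3 stood apart: it had the fewest UMIs per library (10193355, against 31918808 to 88576210 in the others) and the lowest median per nucleus (1606 UMIs, against 1829 to 3526), and its neurons fell largely into sub-clusters of their own. Between 0 and 16 barcodes of kept nuclei were shared by any 2 libraries.

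The sequences around the start of 3 members are shown, those of the 2 β genes, which differed from neurons in opposite directions in astrocyte-like nuclei, and that of *Gabrg1*, the member with the largest increase there. Each is the 250 bases before and the 50 after the start of the gene in RefSeq (GRCr8), and 6 of the 7 members were matched in the table of promoters used. *Gabrb1* lies at chr14:36902844-36903143, minus strand, *Gabrb2* at chr10:27439543-27439842, plus strand and *Gabrg1* at chr14:37750042-37750341, plus strand. Capitals mark CCAAT and GCATGCG, which is part of the palindromic site known for the factor NRF1, on either strand.
Gabrb1: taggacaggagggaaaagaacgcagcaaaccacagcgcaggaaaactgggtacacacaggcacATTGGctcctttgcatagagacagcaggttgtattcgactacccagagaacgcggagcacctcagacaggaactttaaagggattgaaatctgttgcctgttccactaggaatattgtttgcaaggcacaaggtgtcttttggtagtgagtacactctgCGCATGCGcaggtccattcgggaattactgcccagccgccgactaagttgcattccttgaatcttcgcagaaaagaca
Gabrb2: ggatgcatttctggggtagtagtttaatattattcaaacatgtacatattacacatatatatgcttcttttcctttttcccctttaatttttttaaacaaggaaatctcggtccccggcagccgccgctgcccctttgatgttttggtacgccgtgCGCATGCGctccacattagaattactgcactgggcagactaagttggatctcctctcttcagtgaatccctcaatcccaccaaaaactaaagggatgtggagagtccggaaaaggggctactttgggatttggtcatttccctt
Gabrg1: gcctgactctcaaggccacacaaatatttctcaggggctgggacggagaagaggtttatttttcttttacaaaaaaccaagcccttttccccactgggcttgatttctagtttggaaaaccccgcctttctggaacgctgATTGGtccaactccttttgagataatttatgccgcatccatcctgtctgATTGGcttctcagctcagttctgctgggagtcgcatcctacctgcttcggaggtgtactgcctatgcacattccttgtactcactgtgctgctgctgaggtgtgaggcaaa
Both β genes held GCATGCG, overlapping on the 2 strands, as did 3.33% of the 33469 RefSeq promoters of this length. This motif was picked after the sequences had been read, and neither *Gabrg1* nor the other 3 members matched held it. *Gabrg1* held CCAAT (as ATTGG) 2 times and *Gabrb1* held it 1 time, against 37.5% of all promoters with at least 1. TATAAA and GGGCGG, which 14.2% and 33.1% of promoters held, were not among the letters of these 3.

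Every member was detected in every neuronal sum, and the glia differed from neurons in which members they carried. The plot of levels by class shows that *Gabrb1*, *Gabrg1* and *Gabra2* were highest on average in astrocyte-like nuclei, whereas *Gabra3*, *Gabra5* and *Gabrg3* were highest in GABAergic-like and *Gabrb2* in glutamatergic-like neurons. For 6 of the 7 members, all but *Gabrg1*, the ranges over rats of the 3 neuronal classes overlapped one another. In the order of mean levels over all 8 classes, most neighbours overlapped as well. *Gabrg1* was the clearest exception, with astrocyte-like nuclei (450.2 ± 62.4 CPM, SD, n = 5) above OPC-like nuclei (250.1 ± 44.1 CPM, SD, n = 5) and these above GABAergic-like neurons (75.4 ± 23.5 CPM, SD, n = 5), without overlap and in 5 of 5 rats. Neighbours also separated between GABAergic-like and OPC-like nuclei for *Gabrb1*, between dopaminergic-like and OPC-like as well as vascular-like and astrocyte-like nuclei for *Gabrb2*, and between dopaminergic-like and vascular-like nuclei for *Gabra2* and *Gabra3*. Microglia-like and vascular-like nuclei, in which free RNA was estimated to make up 16.2 to 48.4% of the UMIs, had at most 48.2 CPM of *Gabra2*, 21.8 CPM of *Gabra3* and 7.15 CPM of *Gabra5* in any rat. They had up to 343 CPM of *Gabrb1* and 68.7 CPM of *Gabrg1*, both in vascular-like nuclei. *Gabrb2* reached 164 CPM and *Gabrg3* 142 CPM, both in microglia-like nuclei. In vascular-like nuclei, the level was above the free RNA part in 4 of 4 rats for *Gabrg1*, 4 of 4 for *Gabrb2*, 3 of 4 for *Gabrb1*, 3 of 4 for *Gabra2*, 2 of 4 for *Gabra3*, 2 of 4 for *Gabrg3* and 0 of 4 for *Gabra5*.

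**Figure D1:**
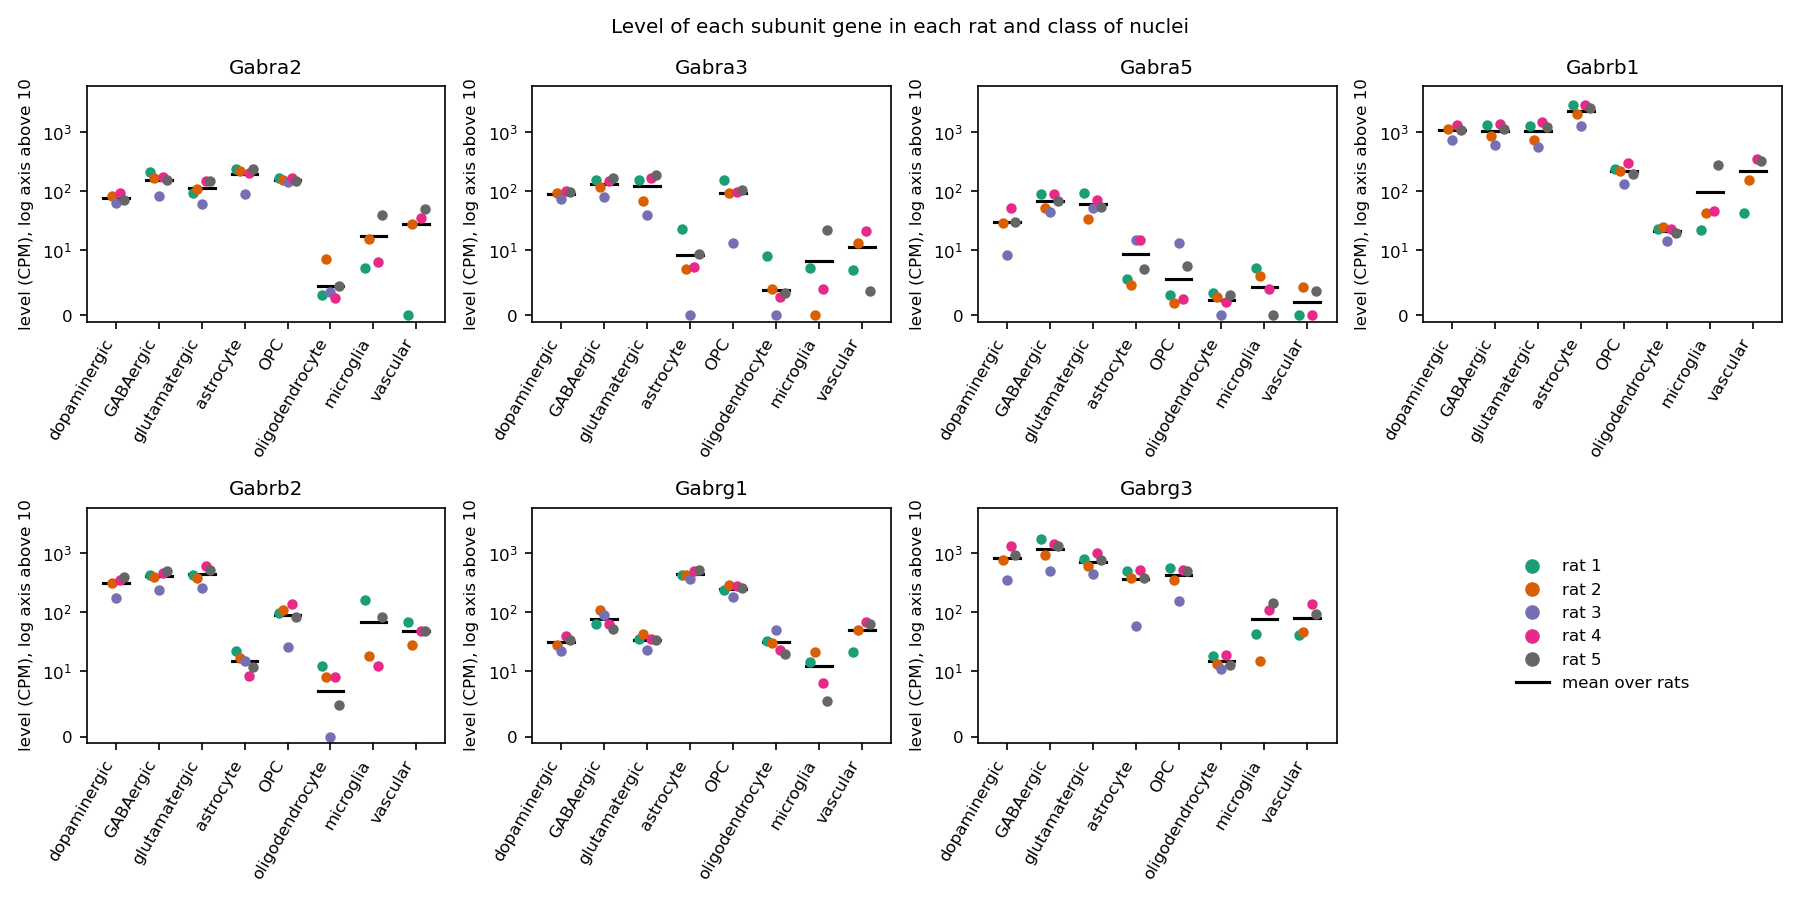
Level of each of the 7 subunit genes (CPM, log axis above 10) in 8 classes of nuclei, with 1 point per rat and a bar at the mean over rats. Gabrg1 peaks in astrocyte-like nuclei, Gabrb2 and Gabra3 fall to near the bottom of the axis there, and oligodendrocyte-like nuclei lie below neurons for every member but Gabrg1.

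Dopaminergic-like neurons, taken as a class, carried less of several subunit genes than GABAergic-like neurons. For *Gabra5*, *Gabrb2* and *Gabrg3* this did not hold in every rat for 1 of their sub-clusters, described below. With counts summed per rat and class and the rat as a block, 5 of the 7 members were lower and 0 higher in dopaminergic-like neurons (quasi-likelihood test of edgeR, Benjamini-Hochberg adjusted p below 0.05 over 11318 genes), where 23.6% of all genes tested were called, 12.3% lower and 11.3% higher. Without rat 3 there were 3 lower members. The median log2 fold change was -0.45 over the members and -0.03 over all genes. Levels are shares of all UMIs, so a higher level and fewer UMIs of other genes cannot be told apart. Every rat gave 1 library. With the rat as a block, the p-values measure how the differences between classes vary between rats, and not the spread of the levels between rats.

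Among the α genes, *Gabra2*, whose subunit serves receptors linked to the anxiolytic action of benzodiazepines, stood at 81.7, 61.7, 91.6 and 70.2 CPM in dopaminergic-like neurons of rats 2 to 5 and at 207, 165, 79.9, 168 and 155 CPM in GABAergic-like neurons of rats 1 to 5. Dopaminergic-like neurons were lower in 4 of 4 rats, although the low value of rat 3 made the ranges of the classes overlap. The difference was 1.88-fold (log2 fold change -0.91 ± 0.13 (SE), adjusted p = 5.2e-05), and it was called in all 18 fits, this one and those with other settings or with 1 rat left out, with values between -0.9999 and -0.66. *Gabra5*, a subunit known for extrasynaptic receptors and tonic inhibition, was at 28.6, 9.18, 51.4 and 28.97 CPM in dopaminergic-like neurons of rats 2 to 5 against 88.1, 50.04, 42.8, 86.5 and 66.5 CPM in GABAergic-like neurons. It was 1.94-fold lower (log2 fold change -0.96 ± 0.17 (SE), adjusted p = 0.000366), lower in 4 of 4 rats, and the rat with the highest dopaminergic-like level, rat 4, lay above the 2 lowest GABAergic-like levels. It was no longer called when the rat was not a block (log2 fold change -1.12, adjusted p = 0.0940), but was in the other 17 fits. *Gabra3*, the α subunit common in monoaminergic neurons, was at 92.3, 72.1, 99.5 and 94.6 CPM against 152, 116, 78.3, 147 and 164 CPM. The lower level in 4 of 4 rats did not pass the test (log2 fold change -0.45 ± 0.19 (SE), adjusted p = 0.102), but did in 5 of the 18 fits, reaching -0.57 with the neuronal sub-clusters of a single rat left out. That setting keeps no neuron of rat 3 and so sets 3 dopaminergic-like rats against 4.

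Of the β genes, *Gabrb2* was lower in dopaminergic-like neurons and *Gabrb1* did not pass the test. *Gabrb1* was at 1117, 739, 1311 and 1064 CPM in dopaminergic-like neurons of rats 2 to 5, at 1285, 834, 589, 1362 and 1125 CPM in GABAergic-like and at 1267, 732, 544, 1477 and 1197 CPM in glutamatergic-like neurons of rats 1 to 5. The 3 ranges lay over each other, and no difference of *Gabrb1* between neuronal classes passed the test in this fit (adjusted p = 0.296, 0.201 and 0.938 for dopaminergic-like against GABAergic-like, dopaminergic-like against glutamatergic-like, and glutamatergic-like against GABAergic-like). In other fits, *Gabrb1* was called higher in dopaminergic-like than in glutamatergic-like neurons after thinning (log2 fold change 0.46, adjusted p = 0.0285) and with doublets kept (1.28, adjusted p = 0.00180). It was lower in glutamatergic-like than in GABAergic-like neurons with doublets kept (-1.04, adjusted p = 0.0239). *Gabrb2*, the β subunit of the most abundant receptor type in brain, was at 318, 177, 349 and 389 CPM in dopaminergic-like neurons against 431, 398, 236, 467 and 493 CPM in GABAergic-like and 437, 379, 256, 616 and 512 CPM in glutamatergic-like neurons. It was 1.28-fold lower than in GABAergic-like neurons (log2 fold change -0.36 ± 0.09 (SE), adjusted p = 0.00845) and 1.36-fold lower than in glutamatergic-like neurons (log2 fold change -0.44 ± 0.09 (SE), adjusted p = 0.00293), in 4 of 4 rats each. Without rat 3, or without rat 4, the first of these no longer passed (log2 fold change -0.33 and -0.27, adjusted p = 0.0619 and 0.0637), and without rat 4 neither did the second (log2 fold change -0.29, adjusted p = 0.0716). They were called in 13 and 14 of the 18 fits.

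Of the γ genes, *Gabrg1*, known from glia and from few neurons in the adult brain, showed the largest difference of the members between dopaminergic-like and GABAergic-like neurons. It was at 28.2, 22.3, 39.5 and 33.5 CPM in dopaminergic-like neurons of rats 2 to 5 and at 63.7, 109.5, 89.6, 62.3 and 52.2 CPM in GABAergic-like neurons of rats 1 to 5, and the ranges did not overlap. The difference was 2.41-fold (log2 fold change -1.27 ± 0.20 (SE), adjusted p = 0.000102) and was called in all 18 fits, with values between -1.63 and -0.92. A GABAergic-like sub-cluster of rat 2 led by *Pax3* and *Rxfp1* had *Gabrg1* at 266 CPM and held 270 of the 755 *Gabrg1* UMIs of that rat's GABAergic-like neurons. Its counterpart in rat 3 was at 166 CPM and held 38 of 111. With the neuronal sub-clusters of a single rat left out, and with them all neurons of rat 3, *Gabrg1* remained lower (log2 fold change -0.92, adjusted p = 0.000841). *Gabrg3*, a rarer γ subunit, was at 770.5, 354, 1313 and 949 CPM in dopaminergic-like and 1737, 943, 509, 1432 and 1336 CPM in GABAergic-like neurons, lower in 4 of 4 rats with overlapping ranges (log2 fold change -0.38 ± 0.12 (SE), adjusted p = 0.0303). This call held in 11 of the 18 fits, with values between -0.44 and -0.26. It was lost without the rat as a block, after thinning, with doublets kept and with neurons typed by their own markers. It was also lost without rat 3, rat 4 or rat 5 (log2 fold change -0.32, -0.41 and -0.36, adjusted p = 0.0820, 0.0558 and 0.124).

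Against glutamatergic-like neurons, 3 members were lower in dopaminergic-like neurons, *Gabra2*, *Gabra5* and *Gabrb2*, and 0 were higher, where 18.1% of genes were called, 9.27% lower and 8.86% higher. *Gabra2* stood at 91.5, 109, 59.1, 145 and 144 CPM and *Gabra5* at 91.5, 33.1, 51.6, 68.98 and 51.97 CPM in glutamatergic-like neurons of rats 1 to 5. *Gabra2* was 1.38-fold lower in dopaminergic-like neurons (adjusted p = 0.0341) and *Gabra5* 1.53-fold lower (adjusted p = 0.0390), each called in 10 of the 18 fits and *Gabrb2* in 14. Without rat 4, and without the rat as a block, 0 members were called. With doublets kept, the clusters left 5, 11 and 2 glutamatergic-like nuclei in rats 1, 4 and 5. Rats 2, 3 and 4 alone then entered the glutamatergic-like sums. None of these 3 members was called in that fit (log2 fold change 0.21 for *Gabra2*, adjusted p = 0.605). With doublets removed and all rats in, the remaining 4 members did not pass. *Gabrg1*, at 35.2, 42.8, 22.7, 34.9 and 33.98 CPM in glutamatergic-like neurons, gave log2 fold change -0.08 (adjusted p = 0.910). It was called in opposite directions in 2 other fits. It was higher in dopaminergic-like neurons once sub-clusters of a single rat were left out (1.07, adjusted p = 0.0194). That setting also removed all neurons of rat 3 and left 1 glutamatergic-like sub-cluster, with 118 of 338 nuclei in rat 2. *Gabrg1* was lower in dopaminergic-like neurons with neurons typed by their own markers (-0.83, adjusted p = 0.0345). *Gabrg3* was called higher in 2 of the 18 fits and *Gabra3* lower in 1.

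Between glutamatergic-like and GABAergic-like neurons, 3 members were lower and 0 higher in the former, where 6.21% of genes were called, 3.44% lower and 2.77% higher. *Gabrg1* was 2.29-fold lower (log2 fold change -1.19 ± 0.20 (SE), adjusted p = 0.00100), with no overlap of the ranges and in 5 of 5 rats. *Gabrg3*, at 789, 602, 446, 1011 and 782 CPM in glutamatergic-like neurons, was 1.59-fold lower (log2 fold change -0.67 ± 0.11 (SE), adjusted p = 0.000994). *Gabra2* was 1.37-fold lower (log2 fold change -0.45 ± 0.13 (SE), adjusted p = 0.0434), and this call held in 8 of the 18 fits. With each neuron typed by its own marker UMIs in place of sub-clusters, none of the 3 was called, *Gabrg1* being at -0.48 and *Gabrg3* at 0.08 (adjusted p = 0.355 and 0.867). *Gabrg1* was called in 17 and *Gabrg3* in 13 of the 18 fits. *Gabra3* and *Gabrb1* were each called lower in 1, with doublets kept.

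**Figure D2:**
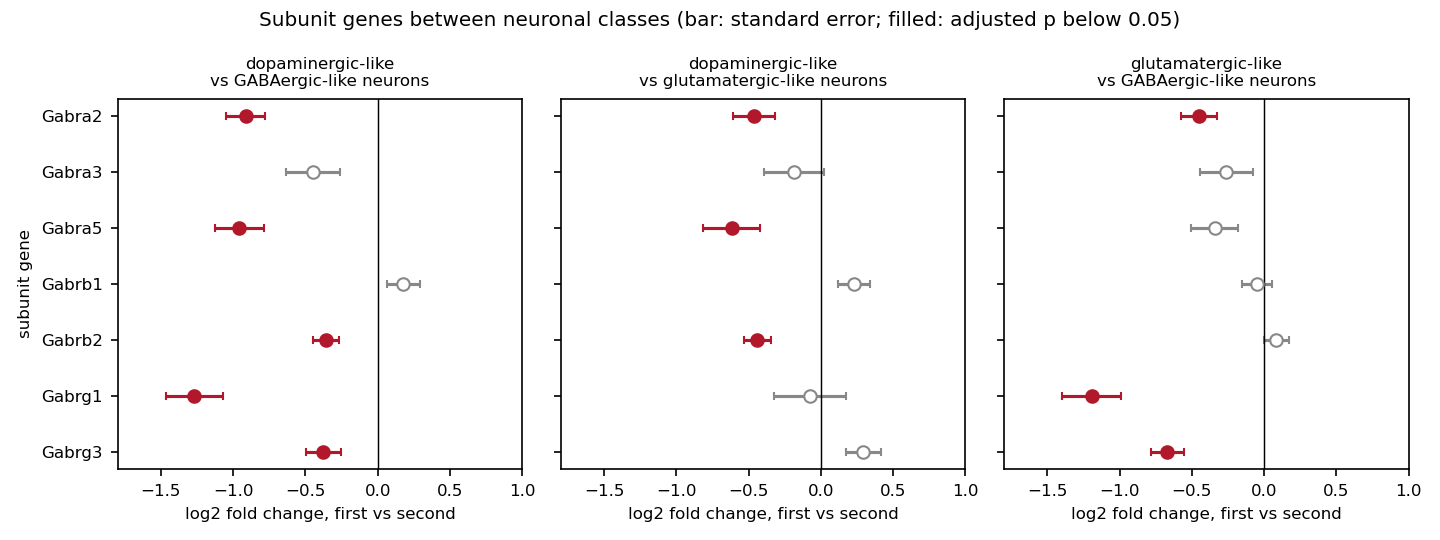
Log2 fold change of each subunit gene between the neuronal classes (x axis). Bars are standard errors computed from the fold change and F statistic of edgeR, and filled points have adjusted p below 0.05. Gabrg1 lies furthest to the left in both comparisons with GABAergic-like neurons, and Gabrb1 lies between -0.05 and 0.23 in all 3.

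Within dopaminergic-like neurons, 6 of the 7 members had the same order in each of 3 rats between the 2 sub-clusters that held at least 20 nuclei in several rats, and *Gabra3* did not. The first was led by genes including *Slc6a3*, the dopamine transporter, and *Drd2*, the dopamine autoreceptor, and the second by *Aldh1a1*, an aldehyde dehydrogenase known to mark a subset of midbrain dopamine neurons. In rats 2, 4 and 5, *Gabra5* was at 8.88, 17.02 and 9.39 CPM in the *Slc6a3* and *Drd2* sub-cluster and at 75.5, 84.7 and 53.2 CPM in the *Aldh1a1* sub-cluster, so the lowest value of the second was above the highest of the first. *Gabrg3* was at 493, 989 and 696 CPM in the first and 1434, 1646 and 1265 CPM in the second, and *Gabrb2* at 260.4, 204 and 323 and 457, 501 and 459.9 CPM, again without overlap. *Gabrg1* followed the same order, at 21.7, 27.5 and 23.5 against 43.7, 52.4 and 45.99 CPM. *Gabrb1* was on the other side in every rat, at 1147, 1360.4 and 1123 CPM in the first and 1048, 1238 and 1000.2 CPM in the second, with ranges that overlapped. *Gabra2* was at 78.3, 77.2 and 61.02 CPM in the first and 88.8, 105 and 81.9 CPM in the second. The order of *Gabra3* changed between rats, at 86.1, 110.0 and 111 against 107, 90.1 and 74.7 CPM. Set against all GABAergic-like neurons of the same rat, the *Aldh1a1* sub-cluster had more *Gabrg3* and *Gabrb2* in rats 2 and 4 and less in rat 5. Its *Gabra5* was higher in rat 2 and lower in rats 4 and 5, and its *Gabra2* and *Gabrg1* were lower in each of these rats. These are descriptions of clusters in 3 rats and were not tested. The dopaminergic-like nuclei of rat 3 formed a sub-cluster of their own, with *Gabra5* at 9.18 CPM and *Gabrg3* at 354 CPM.

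GABAergic-like sub-clusters also differed in their members. A sub-cluster led by *Sox6*, a transcription factor, with 264 nuclei had the highest *Gabra5* of the 9 neuronal sub-clusters with at least 20 nuclei in at least 2 rats, at 133, 125 and 120.0 CPM in rats 2, 4 and 5, and the lowest *Gabrg3*, at 185, 98.9 and 140.0 CPM. Its *Gabrb2* was at 189.9, 38.5 and 64.4 CPM, the lowest in rats 4 and 5 but not in rat 2. A sub-cluster led by *Nox4* and *Meis2* had *Gabrb2* at 184, 125 and 181 CPM and *Gabrg3* at 261, 227 and 254 CPM in rats 2, 4 and 5, beside *Gabrg1* at 103, 106 and 67.3 CPM. The larger sub-cluster led by *Npas1* and *Angpt1* had *Gabrg3* at 1897, 2028 and 1722 CPM and *Gabrb2* at 552, 703 and 522 CPM in rats 1, 4 and 5. Among these 9 sub-clusters, *Gabrg3* ran from 133 CPM to 2124 CPM over all rats summed, and *Gabra3* from 91.1 to 172 CPM. Glutamatergic-like sub-clusters differed as well. In rat 2, a sub-cluster led by *Ttc29* with 140 nuclei had *Gabrb1* at 107 CPM and *Gabra2* at 29.6 CPM. The sub-cluster led by *Pdzrn3* had 1129 and 108 CPM in that rat.

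**Figure D3:**
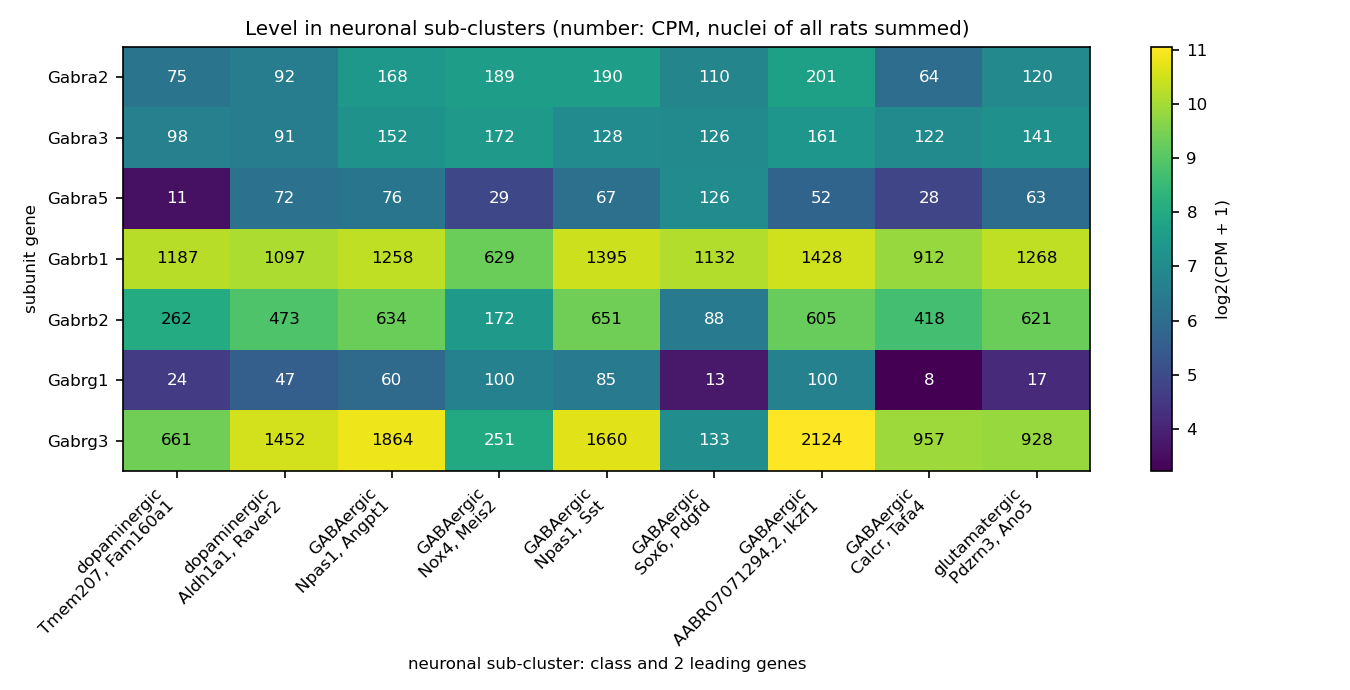
Level of the 7 subunit genes (rows) in the 9 neuronal sub-clusters with at least 20 nuclei in at least 2 rats (columns, with class and leading genes), as CPM of the nuclei of all rats summed and colored by log2(CPM + 1). Gabra5 is at 10.8 CPM in 1 dopaminergic-like sub-cluster and 71.5 CPM in the other, and Gabrg3 is lowest in the Sox6 sub-cluster.

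The mix of the β members varied little between rats within a neuronal class. *Gabrb1* held a larger part of it in dopaminergic-like neurons as a whole class, but not in each of their sub-clusters. A share here is a member's part of the UMIs of the members of its family. It depends on the length and annotation of each gene, so shares were compared between classes and not between genes. *Gabrb1* made up 77.8, 80.7, 78.99 and 73.2% of the β members' UMIs in dopaminergic-like neurons of rats 2 to 5, 74.9, 67.7, 71.4, 74.5 and 69.5% in GABAergic-like and 74.4, 65.9, 67.99, 70.6 and 70.1% in glutamatergic-like neurons of rats 1 to 5. Dopaminergic-like neurons had the higher share in 4 of 4 rats against either class. The differences were 6.89 ± 3.25 percentage points (SD of the difference, n = 4), exact sign-flip permutation p = 0.125, adjusted p = 0.375 over 15 comparisons, and 9.04 ± 4.35 percentage points (SD of the difference, n = 4), exact sign-flip permutation p = 0.125, adjusted p = 0.375 over 15 comparisons. With 4 rats the smallest p this two-sided test can give is 0.125, and with 5 rats it is still above 0.05, so no share could pass. The single rats' differences ran from 3.69 to 10.1 points against GABAergic-like and from 3.15 to 12.7 points against glutamatergic-like neurons. With neurons typed one by one by their own markers, the difference of *Gabrb1* from glutamatergic-like neurons was 3.93 points. Over nuclei of all rats summed, *Gabrb1* held 81.9% in the *Slc6a3* and *Drd2* sub-cluster of dopaminergic-like neurons. In their *Aldh1a1* sub-cluster it held 69.9%, within the ranges of the other neuronal classes.

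Among the α members, *Gabra3* held 45.6, 50.5, 41.03 and 48.8% in dopaminergic-like neurons and 33.9, 35.2, 38.96, 36.6 and 42.6% in GABAergic-like neurons, higher in the former in 4 of 4 rats by 8.14 ± 3.35 percentage points (SD of the difference, n = 4), exact sign-flip permutation p = 0.125, adjusted p = 0.375 over 15 comparisons. *Gabra2* held 39.4% ± 3.03 (SD, n = 4) and 43.6% ± 4.32 (SD, n = 5) in these classes and *Gabra5* 14.2% ± 6.06 (SD, n = 4) and 18.98% ± 2.75 (SD, n = 5). The share of *Gabra5* was lower in dopaminergic-like neurons in 4 of 4 rats, and that of *Gabra2* in 3 of 4. These shares leave out *Gabra4*, whose level in dopaminergic-like neurons, given below, was above that of each α member. The higher share of *Gabra3* therefore holds among the members alone, and would not hold with *Gabra4* counted as well. The dopaminergic-like sub-clusters differed here as well. Over nuclei of all rats summed, *Gabra3* held 53.4% in the *Slc6a3* and *Drd2* sub-cluster and 35.8% in the *Aldh1a1* sub-cluster, and *Gabra5* 5.88% and 28.1%. Among the γ members, *Gabrg1* held 3.53, 5.92, 2.92 and 3.41% in dopaminergic-like neurons and 3.54, 10.4, 14.96, 4.17 and 3.76% in GABAergic-like neurons, the rest being *Gabrg3*. It was lower in dopaminergic-like neurons in 4 of 4 rats, with a difference of -4.38 ± 4.24 percentage points (SD of the difference, n = 4), exact sign-flip permutation p = 0.125, adjusted p = 0.375 over 15 comparisons. This difference was -2.82 points without rat 3 and -1.57 points without rat 3 and the other sub-clusters of a single rat, and that of *Gabra5* went from -4.64 to -1.23 and -1.48 points, and to -2.49 points at another clustering resolution. Among the 3 neuronal classes, the α shares varied most between rats in glutamatergic-like neurons, with *Gabra5* at 13.6 to 34.3% of the α members.

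**Figure D4:**
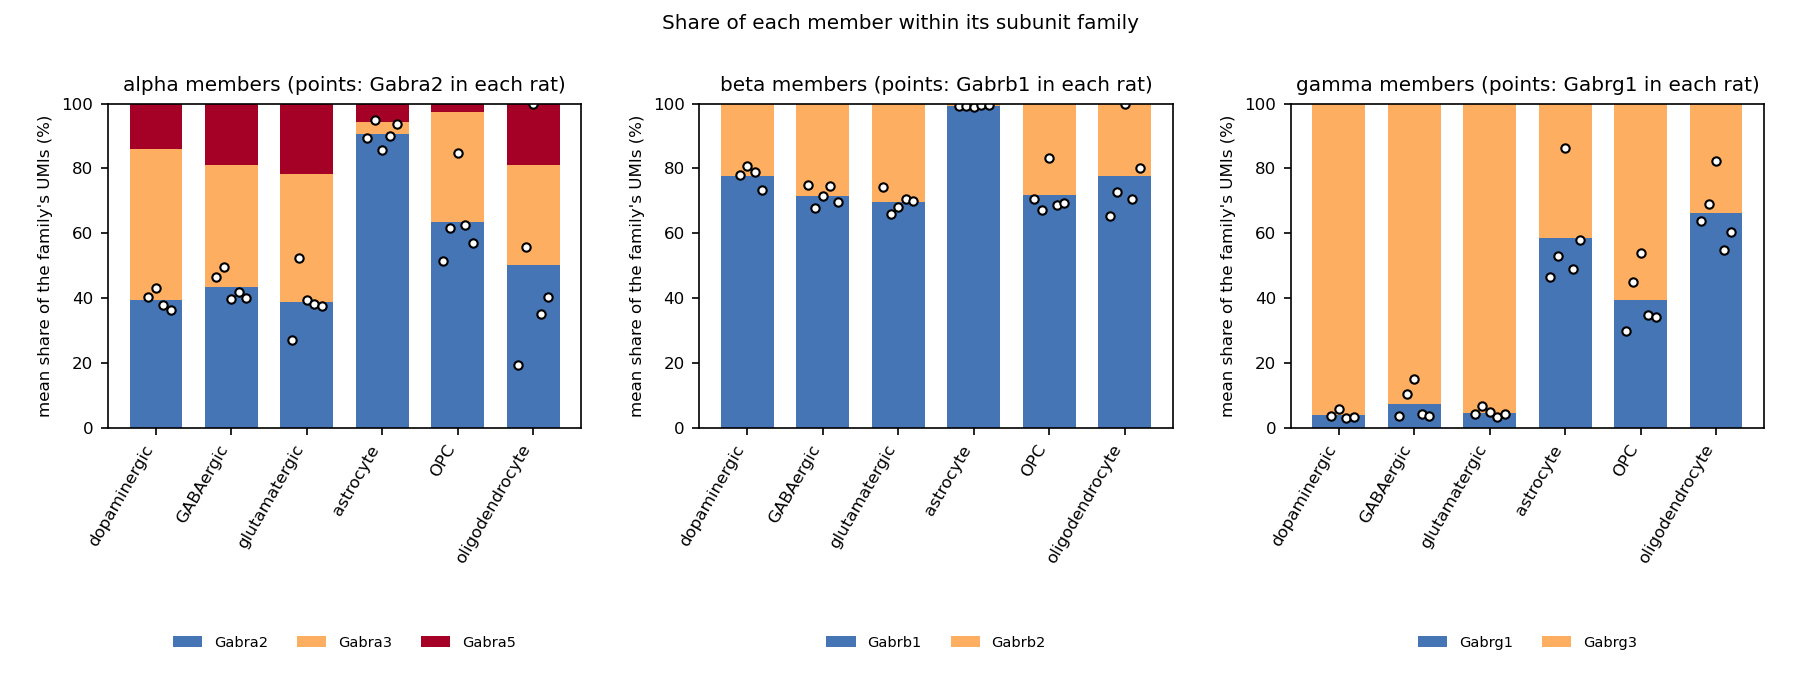
Mean share of each member in the UMIs of the α, β or γ members (bars, %) in 6 classes, with points for the first member of each family in each rat. Gabrb1 makes up 99.3% of β UMIs in astrocyte-like nuclei, and Gabrg1 is 3.95 to 7.36% of the γ UMIs in the neuronal classes but 58.5% in astrocyte-like, 39.5% in OPC-like and 66.1% in oligodendrocyte-like nuclei.

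Astrocyte-like nuclei, with 594 to 1426 CPM of the water channel gene *Aqp4* against 7.75 to 87.6 CPM in GABAergic-like neurons, carried more *Gabrg1*, *Gabrb1* and *Gabra2* than neurons, and less *Gabrb2*, *Gabra3*, *Gabra5* and *Gabrg3*, so that 3 members were higher and 4 lower than the mean of the 3 neuronal classes, where 63.2% of the 11888 genes tested were called, 35.4% higher and 27.8% lower. All 7 calls held in all 18 fits, those without rat 3 included. *Gabrg1* was at 437, 427, 366, 499.7 and 523 CPM in rats 1 to 5 and 11.6-fold higher than in neurons (log2 fold change 3.54 ± 0.14 (SE), adjusted p = 1.5e-20), with every astrocyte-like value above every neuronal one. *Gabrb1* was at 2878, 2035, 1243, 2829.7 and 2519.7 CPM, 2.33-fold higher (log2 fold change 1.22 ± 0.11 (SE), adjusted p = 2.7e-11), and the low value of rat 3 overlapped the neuronal ranges although astrocyte-like nuclei were higher in 5 of 5 rats. *Gabra2* was at 233, 215, 87.7, 202 and 237 CPM, 2.01-fold higher (log2 fold change 1.01 ± 0.15 (SE), adjusted p = 5.0e-07) and higher in 5 of 5 rats.

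The 4 members that were lower in astrocyte-like nuclei fell to different levels. *Gabrb2* was at 22.01, 16.8, 14.6, 9.25 and 11.7 CPM in rats 1 to 5, 23.9-fold lower than in neurons (log2 fold change -4.58 ± 0.22 (SE), adjusted p = 1.0e-18). *Gabra3* was at 22.01, 6.99, 0, 7.40 and 9.33 CPM (11.1-fold lower, adjusted p = 1.7e-12) and *Gabra5* at 5.50, 4.66, 14.6, 14.8 and 6.999 CPM (6.08-fold lower, adjusted p = 7.2e-10). RNA free in the suspension, whose share in astrocyte-like sums was estimated from neuronal markers at 8.80 to 34.8%, would by itself give 13.7 CPM of *Gabrb2* and 4.95 CPM of *Gabra3* on average, and the measured levels exceeded that part in 2 and 3 of 5 rats, those of *Gabra5* in 5 of 5. *Gabrg3* was 2.22-fold lower, at 504, 378, 58.5, 518 and 379 CPM, of which free RNA would give 29.1 CPM on average. Over the 18 fits *Gabrb2*, *Gabra3* and *Gabra5* were called lower each time, but the size moved, and the log2 fold change lay between -7.65 and -3.63 for *Gabrb2* (with free RNA subtracted and with doublets kept), -4.86 and -2.75 for *Gabra3* and -3.46 and -2.16 for *Gabra5*. Within families, *Gabrb1* held 99.3% ± 0.327 (SD, n = 5) of the β members' UMIs, *Gabra2* 90.7% ± 3.62 (SD, n = 5) of the α and *Gabrg1* 58.5% ± 16.1 (SD, n = 5) of the γ.

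OPC-like nuclei had more *Gabrg1* and *Gabra2* than neurons, less *Gabra5*, *Gabrb1*, *Gabrb2* and *Gabrg3*, and a level of *Gabra3* that did not differ past the test. Thus 2 members were higher and 4 lower, where 49.7% of genes were called, 26.3% higher and 23.4% lower. *Pdgfra*, the receptor gene that defines OPCs, was at 891 to 1134 CPM in these nuclei. *Gad2*, which encodes an enzyme of GABA synthesis, was at 137 to 626 CPM in them and at 183 to 382 CPM in GABAergic-like neurons, while *Gad1* was at 8.78 to 47.9 and 169 to 316 CPM, and the part of *Gad2*-bearing nuclei in the OPC-like levels was not tested. *Gabrg1* was at 236, 290.3, 180.4, 281 and 262 CPM in rats 1 to 5, 6.38-fold higher than in neurons (log2 fold change 2.67 ± 0.15 (SE), adjusted p = 2.8e-16), in 5 of 5 rats and all 18 fits. *Gabra2*, at 163, 150.4, 142, 162 and 146 CPM, was 1.40-fold higher (log2 fold change 0.49 ± 0.16 (SE), adjusted p = 0.0116), a call that 9 of the 18 fits gave and that was lost without rat 1, 2, 4 or 5 (highest adjusted p among these 0.120). *Gabra3* was at 150.4, 91.98, 12.9, 94.1 and 103 CPM, within the range of the neurons except for the low value of rat 3, which rests on 50 nuclei, and did not pass (log2 fold change -0.20 ± 0.19 (SE), adjusted p = 0.409). *Gabrb1* was 4.64-fold lower at 236, 218, 129, 299.8 and 192 CPM, *Gabrb2* 3.74-fold lower at 98.2, 107, 25.8, 137 and 84.5 CPM and *Gabrg3* 2.07-fold lower at 559, 356, 155, 528 and 505 CPM. *Gabra5* was at 1.92 to 12.9 CPM, 11.98-fold lower than in neurons (log2 fold change -3.58 ± 0.35 (SE), adjusted p = 2.1e-10). This level rests on 11 UMIs over the 5 rats. Free RNA was estimated at 8.25 to 29.5% of the UMIs of OPC-like sums and would by itself give 2.77 CPM of *Gabra5* on average. The measured level exceeded that part in 3 of 5 rats.

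Set against each other, astrocyte-like nuclei were higher than OPC-like nuclei in 3 members and lower in 2, where 36.9% of genes were called, 19.5% higher and 17.4% lower. The β genes split: *Gabrb1* was 10.8-fold higher (log2 fold change 3.43 ± 0.17 (SE), adjusted p = 1.7e-17) and *Gabrb2* 6.41-fold lower (log2 fold change -2.68 ± 0.26 (SE), adjusted p = 1.4e-10) in astrocyte-like nuclei. So did the α genes, with *Gabra3* 9.69-fold lower (log2 fold change -3.28 ± 0.33 (SE), adjusted p = 4.0e-10) and *Gabra2* 1.43-fold higher (log2 fold change 0.52 ± 0.19 (SE), adjusted p = 0.0314), the latter called in 7 of the 18 fits. *Gabrg1* was 1.82-fold higher (log2 fold change 0.87 ± 0.17 (SE), adjusted p = 0.000103) in 5 of 5 rats, and *Gabrg3* did not pass the test (adjusted p = 0.683).

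Oligodendrocyte-like nuclei, the most numerous class, had little of any member. *Gabrb1* was at 14.3 to 24.5 CPM, *Gabrg3* at 10.7 to 18.7 CPM, *Gabrb2* at 0 to 12.1 CPM and the α genes at no more than 9.09 CPM in any rat. All of these were lower than in neurons, 6 of the 7 members being called lower where 80% of genes were called, 30.5% lower and 49.5% higher, at log2 fold changes of -3.73 for *Gabra5* to -5.54 for *Gabrg3*. Free RNA alone would give 34.5 CPM of *Gabrb1* and 27.01 CPM of *Gabrg3* on average, and the measured levels exceeded it in 1 of 5 rats for each. With free RNA subtracted, the log2 fold changes reached -8.79 for *Gabra5*, -12.77 for *Gabrb1*, -12.61 for *Gabrb2* and -12.59 for *Gabrg3*, so their size depended on this setting, while the 6 members were called lower in all 18 fits. *Gabrg1* was the exception, at 32.2, 29.8, 49.99, 22.7 and 19.5 CPM in rats 1 to 5, above its free RNA part of 5.15 CPM on average in 5 of 5 rats, and with a range that overlapped those of dopaminergic-like and glutamatergic-like neurons. It did not pass against neurons (log2 fold change -0.24 ± 0.17 (SE), adjusted p = 0.185). The scaling bears on that value, since the median of all genes in this comparison was 0.29 and fell to 0.07 with DESeq2 size factors, under which *Gabrg1* was lower (log2 fold change -0.47, adjusted p = 0.0164). *Gabrg1* was called lower in 11 of the 18 fits, with values between -0.77 and -0.06.

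**Figure D5:**
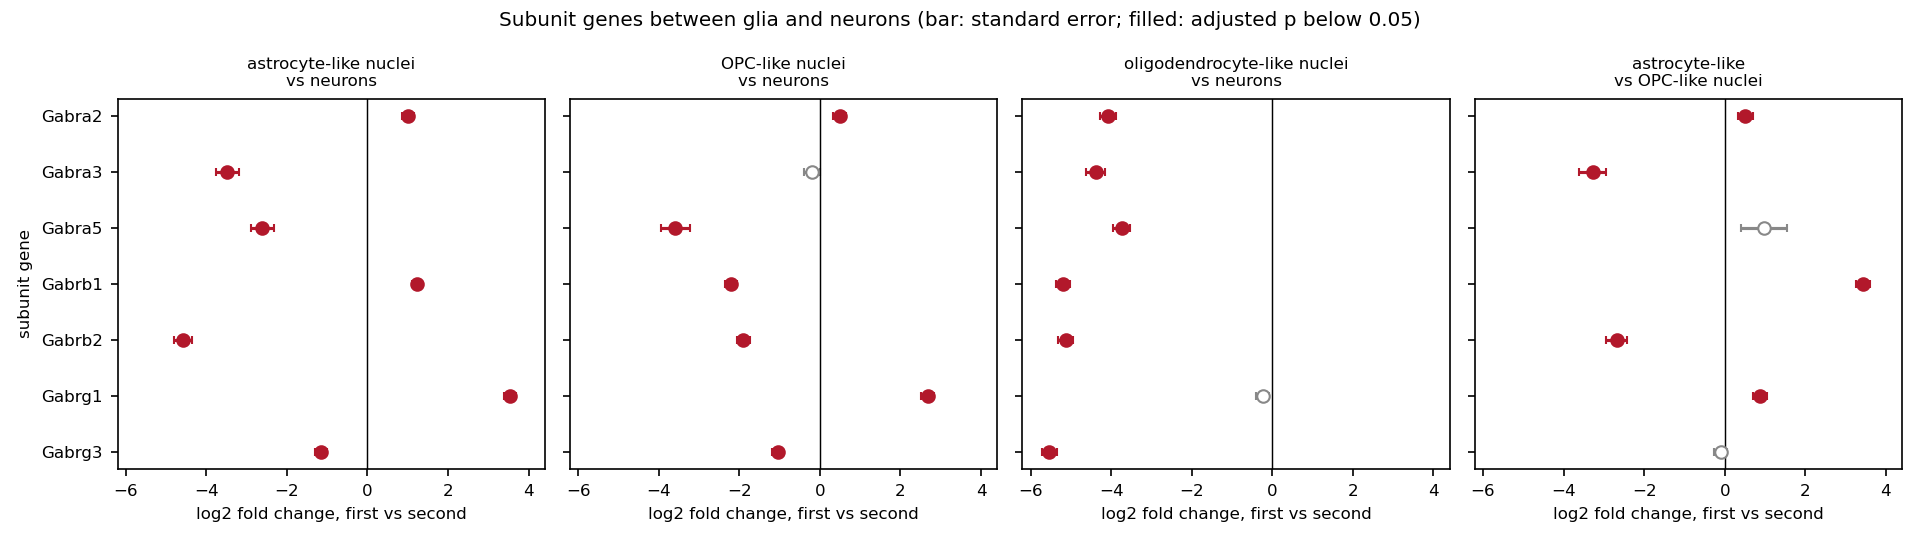
Log2 fold change of each subunit gene for glia against the mean of the neuronal classes, and for astrocyte-like against OPC-like nuclei (x axis). Bars are standard errors computed from the fold change and F statistic of edgeR, and filled points have adjusted p below 0.05. Astrocyte-like nuclei have Gabrg1, Gabrb1 and Gabra2 to the right of 0, OPC-like nuclei Gabrg1 and Gabra2, and oligodendrocyte-like nuclei no member.

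At equal depth, *Gabrb1* was detected on average in the larger part of astrocyte-like, dopaminergic-like and GABAergic-like nuclei, and *Gabrg1* most often in astrocyte-like nuclei. With every nucleus thinned to 1000 UMIs, *Gabrg1* was found in 34.9 ± 3.31% (mean ± SD over 5 rats) of astrocyte-like, 19.3 ± 5.50% of OPC-like, 5.87 ± 1.66% of GABAergic-like and 2.93 ± 1.46% of dopaminergic-like nuclei, beside 2.86 ± 0.866% of oligodendrocyte-like nuclei. Means and SDs of dopaminergic-like nuclei here are over 4 rats. The share in dopaminergic-like and in glutamatergic-like nuclei, 2.37 ± 1.55%, did not exceed that in oligodendrocyte-like nuclei by more than the spread between rats. *Gabrb1* was found in 75.2 ± 7.79% of astrocyte-like, 58.996 ± 7.37% of dopaminergic-like and 52.2 ± 11.3% of GABAergic-like nuclei, against 2.15 ± 0.544% of oligodendrocyte-like nuclei. For *Gabra5* the shares were 2.45 ± 1.41%, 5.08 ± 1.63% and 5.85 ± 3.02% in dopaminergic-like, GABAergic-like and glutamatergic-like nuclei and 0.118 ± 0.130% in oligodendrocyte-like nuclei. Without thinning, *Gabrg1* was found in 64.2 ± 16.9% of astrocyte-like and 7.62 ± 3.77% of oligodendrocyte-like nuclei, *Gabrb1* in 85.96 ± 5.96%, 89.4 ± 13.5% and 6.39 ± 4.36% of astrocyte-like, dopaminergic-like and oligodendrocyte-like nuclei, and *Gabra5* in 17.1 ± 11.5% of dopaminergic-like and 29.1 ± 15.4% of GABAergic-like nuclei. UMIs of at least 1 α, 1 β and 1 γ member were found together in 11.7 to 70.7% of dopaminergic-like, 8.81 to 77.9% of GABAergic-like and 4.08 to 63.4% of astrocyte-like nuclei per rat, and in at most 0.491% of oligodendrocyte-like nuclei. Rat 3, with median totals of 1857, 1538 and 1256 UMIs in the first 3 of these classes, against 3187 to 10303 in the other rats, gave the lowest value of each.

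Of the other genes of the receptor and its synapse, the α subunit gene *Gabra4* stood out, being higher in dopaminergic-like neurons than in both other neuronal classes. Of a list of 29 (12 other subunits, 15 genes of the inhibitory synapse and of receptor trafficking, and 2 chloride transporters), 22 were tested, and 2 were higher and 5 lower in dopaminergic-like than in GABAergic-like neurons (where 23.6% of all genes were called), 1 higher and 3 lower than in glutamatergic-like neurons (18.1% of all genes). Between glutamatergic-like and GABAergic-like neurons, 1 was higher and 0 lower (6.21% of all genes). The median log2 fold change of the list was -0.14, 0.01 and -0.09 in these 3 comparisons, where the medians of all genes were -0.03, -0.02 and -0.00428. *Gabra4*, the neighbour of *Gabra2* and *Gabrb1*, was at 359, 279, 261 and 301 CPM in dopaminergic-like neurons of rats 2 to 5 and 70.2, 58.5, 33.1, 89.4 and 68.1 CPM in GABAergic-like neurons of rats 1 to 5, without overlap (log2 fold change 2.32 ± 0.18 (SE), adjusted p = 4.2e-08), and was also higher than in glutamatergic-like neurons (log2 fold change 2.38 ± 0.20 (SE), adjusted p = 2.5e-07). Both calls held in every planned fit. *Slc12a5*, the neuronal chloride exporter KCC2, was lower in dopaminergic-like than in GABAergic-like neurons (log2 fold change -1.04 ± 0.12 (SE), adjusted p = 3.1e-06), in 16 of 17 planned fits. It is named for its role, after its value was seen.

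Of 21 genes of the list tested in glia, 4 were higher and 9 lower in astrocyte-like nuclei than in neurons, 6 and 8 in OPC-like nuclei, and 8 and 12 in oligodendrocyte-like nuclei. Over all genes, 63.2%, 49.7% and 80% were called in these comparisons. The median log2 fold changes of the list were -0.31, -0.12 and -0.91, beside 0.11, 0.05 and 0.29 over all genes. Among the genes with the largest changes of those called in every planned fit were, in astrocyte-like nuclei, *Shisa7*, an accessory protein of the receptor (-3.41), *Slc12a5* (-2.72) and *Iqsec3*, a binding partner of gephyrin (-2.34). In OPC-like nuclei *Iqsec3* (-3.22) and *Gabra4* (-1.34) were among them. In oligodendrocyte-like nuclei *Gabra4* (-3.69) and *Shisa7* (-3.64) were lower. All of these are log2 fold changes against neurons with adjusted p of at most 4.0e-05. The named genes are all lower ones. Of the 2 chloride transporters, 1 was higher and 1 lower in each of these comparisons, and in astrocyte-like nuclei the higher one was *Slc12a2*. Between astrocyte-like and OPC-like nuclei, where 3 genes of the list were higher and 6 lower in the former and 36.9% of all genes were called, 19.5% higher and 17.4% lower, *Shisa7* (-3.72) and *Nlgn2*, the neuroligin of inhibitory synapses (-1.70), were among the lower ones.

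Across the 37 sums of rats and classes, the correlation between members ran widely, and the lowest values were those of *Gabrg1*. On log2(CPM + 1), the Pearson correlation of *Gabra3* with *Gabrb2* was 0.867 and that of *Gabra2* with its neighbour *Gabrb1* 0.864, whereas *Gabrg1* had -0.151 with *Gabrb2*, 0.0309 with *Gabra5* and 0.0706 with *Gabra3*. Over the 14 neuronal sums alone, *Gabra3* and *Gabrb1* had 0.839, and *Gabrg1* had between 0.000656 (with *Gabrb1*) and 0.609 (with *Gabra2*), with 0.317 for *Gabra3*. Sums of the same rat share a library and its depth, so these values are descriptions. Of 13125 genes, those with the profile most like *Gabrg1* were *Rgs20* (r = 0.921), *Sh3pxd2b* (r = 0.906) and *Dnah5* (r = 0.878), and those most like *Gabrb2* were *Myt1l* (r = 0.958), *Sptbn4* (r = 0.949) and *AABR07017145.2* (r = 0.940). The closest to *Gabrb1* were *Kcnc2* (r = 0.943), *Gabbr2* (r = 0.931) and *Cap2* (r = 0.928), and those closest to *Gabrg3* were *Kcnma1* (r = 0.967), *Alk* (r = 0.959) and *Nrg2* (r = 0.958). For the α genes, they were *Cdh10* (r = 0.932), *Fat3* (r = 0.926) and *Dgkb* (r = 0.922) for *Gabra2*, *Pde10a* (r = 0.929), *Grm5* (r = 0.927) and *Unc80* (r = 0.926) for *Gabra3*, and *RGD1560883* (r = 0.871), *Ttbk2* (r = 0.871) and *Sclt1* (r = 0.860) for *Gabra5*. Of the genes named here, *Gabbr2* encodes a subunit of the GABA-B receptor, *Grm5* a metabotropic glutamate receptor, and *Kcnc2* and *Kcnma1* potassium channels.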

How the data were processed

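The values are UMI counts per gene and nucleus, which the authors deposited as unfiltered matrices made with Cell Ranger (8.0.1 in the submitters' processing notes, while the matrix headers name an older version), and the genome build is not given in the sources used here. Barcodes passed the limits given above. Doublets were the highest-scoring nuclei of Scrublet at 0.8% per 1000 nuclei, since its automatic threshold marked only 18, and were left out. Nuclei were clustered in scanpy 1.11.5 and leidenalg 0.10.2 without GABA-A receptor genes, and clusters were named from markers with thresholds set after the clusters were seen. Counts were summed per rat and class (at least 10 nuclei) and tested in edgeR 4.0.16 (R 4.3.3, quasi-likelihood, TMM, filterByExpr) with the rat as a block. Standard errors (SE) were computed from the fold change and the F statistic. The test was checked on simulated data with 200 changed genes. These data held no differences between rats, so they could not check the block. The members and lists were chosen with earlier results of these data known. Named genes were the members, the 3 genes most like each in profile (at least 200 UMIs), and up to 3 pathway genes per comparison called the same way in every planned fit, of which some are not reported here. Sums of the same rat came from 1 animal, and their deviations from class means correlated at 0.212 to 0.818. Shares were compared by exact sign-flip permutation. Alternatives were DESeq2 (1.42.0) or its size factors, no filter, no block, free RNA (from droplets under 100 UMIs) subtracted, thinning, doublets kept, no gene maximum, at least 2000 UMIs, other naming or resolution, and each rat left out.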

Additional observations from a re-analysis of the deposited data

Results flagged for a closer look

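In 2 of 56 groups of 4 or 5 rats tested (7 genes in 8 classes), 1 rat stood further from the nearest other than Dixon's 95% criterion allows, and chance alone flags about 1 in 20 groups. *Gabra2* in astrocyte-like nuclei was lowest in rat 3, at 87.7 CPM, where the other rats lay between 202 and 237 CPM. That value rests on 6 UMIs in 49 nuclei of the shallowest library. *Gabrb1* in microglia-like nuclei was highest in rat 5, at 273 CPM from 50 UMIs in 81 nuclei, where the other rats lay between 21.5 and 44.7 CPM. Only 6.17% of these 81 nuclei held a UMI of any β member, so few nuclei gave this value.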

How the results depend on the processing

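All calls of the members in astrocyte-like nuclei against neurons were kept in each of the 17 other fits. Thinning was to 1000 UMIs. Of the 7 members, 5 were called between dopaminergic-like and GABAergic-like neurons, and the other fits called 2 without the replicate block, 3 after thinning and 3 with doublets kept, and 3 to 5 with 1 rat left out (3 without rat 3 and without rat 4). Between dopaminergic-like and glutamatergic-like neurons 3 were called, and the other fits called, in either direction, 0 without the replicate block, 1 with free RNA subtracted, 1 after thinning, 1 with doublets kept and 5 with sub-clusters of a single rat left out, and 0 to 3 with 1 rat left out (0 without rat 4 and 1 without rat 5). The 5 were *Gabra2*, *Gabra3*, *Gabra5* and *Gabrb2*, lower, and *Gabrg1*, higher. Between glutamatergic-like and GABAergic-like neurons 3 were called, and the other fits called 1 without the replicate block and 0 with neurons typed one by one. The sums of a rat came from the same animal, and the replicate block left other counts of members called within 1.5 times. Leaving out sub-clusters of a single rat, which removed all neurons of rat 3, was chosen after seeing the data. The cause of these differences was not tested.

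In the comparison of dopaminergic-like against glutamatergic-like neurons, reversed log2 fold changes were 0.0148 for *Gabra2*, 0.17 for *Gabra3* and 0.13 for *Gabrg1* after thinning, 0.21 for *Gabra2*, 0.95 for *Gabra3*, 0.41 for *Gabrb2* and 0.0911 for *Gabrg1* with doublets kept, -0.25 for *Gabrg3* with no maximum of genes, -0.11 for *Gabrb1* and -0.34 for *Gabrg3* with neurons typed one by one, -0.11 for *Gabrg3* with another resolution and 1.07 for *Gabrg1* with sub-clusters of a single rat left out. In the comparison of glutamatergic-like against GABAergic-like neurons, reversed log2 fold changes were -0.0826 for *Gabrb2* after thinning, -0.84 for *Gabrb2* with doublets kept, 0.25 for *Gabra5* and -0.0967 for *Gabrb2* with no maximum of genes, 0.30 for *Gabra5*, 0.33 for *Gabrb1* and 0.0841 for *Gabrg3* with neurons typed one by one, 0.0151 for *Gabra5*, 0.0962 for *Gabrb1* and -0.0695 for *Gabrb2* with another resolution and 0.00866 for *Gabrb1* with sub-clusters of a single rat left out. In the comparison of OPC-like nuclei against neurons, the log2 fold change that reversed was 0.00349 for *Gabra3* with doublets kept. Among differences of shares (percentage points, dopaminergic-like against glutamatergic-like neurons) that reversed, the share of *Gabra2* was 1.11 after thinning, 7.51 with doublets kept, 0.76 with no maximum of genes, 2.44 with neurons typed one by one and 0.68 with sub-clusters of a single rat left out and the share of *Gabrg1* was 0.68 with no maximum of genes and 1.48 with sub-clusters of a single rat left out. Among differences of shares (percentage points, glutamatergic-like against GABAergic-like neurons) that reversed, the share of *Gabra3* was -0.0711 after thinning, -2.06 with no maximum of genes and -0.45 with another resolution and the share of *Gabrb1* was 0.91 with no maximum of genes, 4.77 with neurons typed one by one and 2.32 with another resolution. With 1 rat left out, results that reversed lay within -0.18 to 0.17 for *Gabrg1* (dopaminergic-like against glutamatergic-like), -0.50 to 0.0801 for *Gabra3* (dopaminergic-like against glutamatergic-like), -0.68 to 5.47 for the share of *Gabra3* (glutamatergic-like against GABAergic-like), -4.56 to 0.64 for the share of *Gabra2* (dopaminergic-like against glutamatergic-like) and -9.47 to 0.87 for the share of *Gabra5* (dopaminergic-like against glutamatergic-like).

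Over all alternatives, 717 single-gene values kept their direction and side of the threshold, 65 lost and 24 gained a call, and 27 reversed. Most reversals were in comparisons with glutamatergic-like neurons. Rats 1 and 5 gave 19 and 55 nuclei of that class, and whether this bears on the reversals was not tested.

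The number of all genes called moved by over 1.5 times from 2671 for dopaminergic-like against GABAergic-like (790 without the replicate block and 1174 after thinning), 2052 for dopaminergic-like against glutamatergic-like (586 without the replicate block, 814 after thinning and 1212 with neurons typed one by one), 703 for glutamatergic-like against GABAergic-like (1151 with no filter on low counts, 104 without the replicate block, 372 after thinning, 411 with doublets kept and 292 with neurons typed one by one), 7511 for astrocyte-like nuclei against neurons (4007 after thinning), 5905 for OPC-like nuclei against neurons (3614 without the replicate block and 2959 after thinning), 9505 for oligodendrocyte-like nuclei against neurons (5158 after thinning) and 4383 for astrocyte-like against OPC-like nuclei (2669 without the replicate block and 2192 after thinning).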
